A study of Mus musculus with 9 samples.

Results

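Dach1, Mecom, Nr5a2 and Prdm16 are 4 genes for DNA-binding or nuclear regulators, described here across 3 endothelial populations of the fetal mouse heart. They were taken by symbol from a table of 41214 genes and were chosen by their counts, as earlier results of these data put them higher in coronary than in endocardial endothelium, so that their difference from the endocardial libraries is a description and not a finding. All 4 passed the filter on low counts. That label held for Dach1 and Nr5a2 in both coronary populations. For Mecom and Prdm16 it held in the arterial libraries, whereas their levels in the venous libraries overlapped those of the endocardial libraries.

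The study sorted endothelial cells from ventricles of mouse hearts at E17.5 (the sample labels write E17) and sequenced their polyadenylated RNA, with 3 libraries for each of 3 populations. Every embryo carried the alleles R26(tom/+), Nes-CreER(Tg/0) and Nes-Gfp(Tg/0) and received 0.1 ug of tamoxifen at E15.5, so that Nestin regulatory sequences drove both the GFP and the recombinase, and Tomato marked cells in which the recombinase had been active. The arterial population, which per the labels also holds capillaries, was DAPI-, Ter119-, CD45-, CD31+, GFP+, Emcn-low and Tomato+. The venous population was DAPI-, Ter119-, CD45-, CD31+, Emcn-low, Tomato- and GFP-low (the labels list GFP+ as well), and the endocardial population was DAPI-, Ter119-, CD45-, CD31+ and GFP+, with neither Emcn nor Tomato named in its gate. The labels do not say whether the libraries came from separate animals, so p-values measure only the spread between these libraries. In bulk libraries such as these, fewer cells of a type and less RNA per cell cannot be told apart.

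Coronary vessels of the mouse heart form from the sinus venosus and the endocardium, and part of the capillary plexus then takes on arterial identity and is remodelled into arteries. Transcription factors that act in this step change the expression of chemokines, connexins and Notch pathway genes of the arterial wall. Dach1, the vertebrate counterpart of Drosophila dachshund, binds DNA through a domain related to that of the SKI and SNO corepressors and in mice promotes the growth of coronary arteries and the expression of Cxcl12. Nr5a2 is an orphan nuclear receptor best known for its roles in bile acid and cholesterol metabolism and in the exocrine pancreas. Mecom and Prdm16 are the closest relatives of each other in the PRDM family of zinc finger proteins, and both recruit CtBP corepressors. Mecom is best known for the maintenance of haematopoietic stem cells, and Prdm16 for the identity of brown fat.

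All 4 genes lie on the minus strand of GRCm38 in the GENCODE annotation. Dach1 (ENSMUSG00000055639) spans chromosome 14, positions 97786853 to 98169765. Nr5a2 (ENSMUSG00000026398) spans chromosome 1, positions 136842571 to 136960448. Mecom (ENSMUSG00000027684) spans chromosome 3, positions 29951296 to 30548008, with 17 annotated transcripts, and Prdm16 (ENSMUSG00000039410) spans chromosome 4, positions 154316125 to 154636873, with 13. Mecom shared 81 exon bases, 0.65% of its exons, with the antisense gene Mecomos, and Prdm16 shared 109, 1.17% of its exons, with the opposite-strand gene B230104I21Rik. Since the strandedness of the libraries is not given in the sources used here, reads over those bases cannot be assigned to one strand. Dach1 and Nr5a2 shared no exon base with another gene.

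The RefSeq promoter table (GRCm38.p6) held 6 windows for the 4 genes, each running from 250 bases before to 50 bases after a start site. Mecom had a pair of them with starts 496.6 kb apart, and Nr5a2 a pair with starts 6.8 kb apart. The 250 bases before the start are shown for Dach1 and for the outer start of Nr5a2, because these were the members with the most similar centred profiles over the 9 libraries. They stand 5′ to 3′ on the minus strand, at chr14:98169766-98170015 for Dach1 and chr1:136960449-136960698 for Nr5a2. Capitals mark CACCC, a core of KLF sites, in Dach1, and TTATCT, the reverse complement of the GATA motif AGATAA, in Nr5a2.
Dach1: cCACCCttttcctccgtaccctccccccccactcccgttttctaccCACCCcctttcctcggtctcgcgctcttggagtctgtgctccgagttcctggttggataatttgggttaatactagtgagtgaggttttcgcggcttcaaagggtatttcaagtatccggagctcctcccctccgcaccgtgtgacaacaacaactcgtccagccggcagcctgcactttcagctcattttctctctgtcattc
Nr5a2: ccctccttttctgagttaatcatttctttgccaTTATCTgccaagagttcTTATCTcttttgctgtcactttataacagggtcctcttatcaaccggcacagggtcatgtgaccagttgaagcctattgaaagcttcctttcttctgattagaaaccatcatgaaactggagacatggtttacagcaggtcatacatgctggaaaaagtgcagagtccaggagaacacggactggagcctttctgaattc
The pair were unlike in composition. The Dach1 window had 54.0% G+C and 13 CpG dinucleotides, and this Nr5a2 window 42.0% and 2, beside medians of 52.7% and 7 over all 32851 windows. The longest exact run shared by any Dach1 and Nr5a2 window, on either strand, was 11 bases. AGATAA occurred on either strand in 11.2% of all windows and in none of the other 5 windows of these genes, and CACCC occurred in 57.5% of all windows. TGGGAA, the RBPJ core, and GTAAACA, a FOX motif, were on neither strand of the 6 windows and on either strand of 25.6% and 3.6% of all windows. GGAAG, an ETS core, was found in 71.4% of all windows, among them both Nr5a2 windows and the inner Mecom window, and ACAAT, a SOX core, in 31.0%, among them that of Prdm16. Each of these is a match of letters and not a measured binding site.

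Mecom and Prdm16 shared a longer run, shown because the genes are relatives that were both highest in the arterial libraries. The outer Mecom window and the Prdm16 window held an identical stretch of 24 bases, which lay in an annotated untranslated exon of each gene and began at base +27 of Mecom (chr3:30509710-30509733) and base +10 of Prdm16 (chr4:154636841-154636864), counting the start site as +1. All of it is in capitals and reads 5′ to 3′ on the minus strand.
Mecom: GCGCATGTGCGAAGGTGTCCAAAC
Prdm16: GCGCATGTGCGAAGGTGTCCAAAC
Of the 32851 windows, these 2 were the ones that held the run (0.0061%). The window of Mecom ends with it, and in the annotated transcripts the exact match went on to 36 bases. Reads that fall wholly in these bases could have been split between the genes in the authors' counting. The next longest run shared by windows of different members was 13 bases, between the inner start of Mecom and the outer start of Nr5a2.

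Libraries held 12750553 to 19474419 expected counts. Levels are given in CPM, counts scaled to the TMM library size. Endocardial and capillary markers followed the labels, and venous markers did so between the coronary populations only. Emcn, 1 of the endocardial markers, was used in both coronary gates, so its level is no separate support for the labels. It averaged 199 CPM in arterial, 249 CPM in venous and 679 CPM in endocardial libraries. The summed level of 10 endocardial markers was 263 to 356 CPM in arterial, 532 to 704 CPM in venous and 4620 to 5632 CPM in endocardial libraries, and that of 10 coronary capillary markers was 4609 to 5292 CPM in the arterial, 4268 to 5602 CPM in the venous and 522 to 595 CPM in the endocardial libraries. Among the endocardial markers Tbx20 had its highest mean in venous libraries. The sum of 6 coronary venous markers was 665 to 831 CPM in arterial, 1218 to 1348 CPM in venous and 2446 to 3152 CPM in endocardial libraries, and 1 of them, Vwf, had a higher mean in arterial than in venous libraries. Endocardial replicate 1 stood apart, with 21021 genes detected against 17251 and 17063 in endocardial replicates 2 and 3, and each of the 4 genes had its highest endocardial level in that library. Replicate 1 also had the most genes detected among the arterial libraries (21160) and among the venous libraries (19665), and the labels give it batch number 1. Of 17103 genes tested with edgeR's quasi-likelihood test, 183 passed a Benjamini-Hochberg adjusted p of 0.05 between arterial and venous libraries, 53 higher and 130 lower in arterial, against 173 higher and 232 lower with DESeq2.

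Dach1 was abundant in both coronary populations and low in the endocardial one. It had 349.9, 273 and 262 CPM in the 3 arterial libraries, 161, 153 and 216 CPM in the venous libraries and 17.49, 5.55 and 12.01 CPM in the endocardial libraries. The mean was 295 ± 48.1 CPM in arterial, 177 ± 34.4 CPM in venous and 11.7 ± 5.98 CPM in endocardial libraries (SD, n = 3 each). No library of one population overlapped another population, and the order was arterial, venous, endocardial. The fitted difference was 4.66 ± 0.38 log2 units for arterial minus endocardial and 3.92 ± 0.37 for venous minus endocardial (SE).

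Nr5a2 had the same order of populations. Its CPM were 28.0, 27.1 and 36.1 in arterial libraries, 21.8, 19.3 and 18.8 in venous libraries and 1.60, 0.937 and 0.407 in endocardial libraries. The endocardial values rested on 21, 13 and 6 counts, so that they carry a large counting error. The mean was 30.4 ± 4.95 CPM in arterial, 20.0 ± 1.62 CPM in venous and 0.983 ± 0.600 CPM in endocardial libraries (SD, n = 3 each), again with no overlap between populations. Arterial minus endocardial was 4.95 ± 0.44 log2 units and venous minus endocardial 4.35 ± 0.43 (SE). Among the 6 pairs of these genes, Nr5a2 and Dach1 had the most similar profiles, with a root mean square difference of 0.56 log2 units over the 9 centred libraries, against 1.42 to 1.85 for the other pairs. The distances of the pairs with Prdm16 take in its count of 0 in endocardial replicate 2.

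Mecom was present in all 3 populations and highest in the arterial one. It had 278, 264 and 250.4 CPM in arterial libraries, 114, 98.3 and 105 CPM in venous libraries and 101, 88.1 and 74.5 CPM in endocardial libraries. The mean was 264 ± 14.0 CPM in arterial, 105 ± 7.65 CPM in venous and 87.8 ± 13.1 CPM in endocardial libraries (SD, n = 3 each). The arterial libraries lay above all others, while the lowest venous library was below the highest endocardial one. Arterial minus endocardial was 1.59 ± 0.17 log2 units and venous minus endocardial 0.26 ± 0.17 (SE). Its endocardial counts were 1098 to 1319 per library.

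Prdm16 was also highest in the arterial population. It had 16.7, 18.9 and 13.3 CPM in arterial libraries, 3.73, 4.26 and 4.86 CPM in venous libraries and 5.19, 0 and 3.80 CPM in endocardial libraries. The mean was 16.3 ± 2.84 CPM in arterial, 4.28 ± 0.569 CPM in venous and 3.00 ± 2.69 CPM in endocardial libraries (SD, n = 3 each). All 3 venous values lay within the endocardial range. The level of 0 in endocardial replicate 2 allows up to 3 counts, or 0.216 CPM, by counting error alone, and the other endocardial libraries had 68 and 56 counts. Arterial minus endocardial was 2.44 ± 1.00 log2 units (1.87 to 3.09 over the fits that left out a library). Venous minus endocardial was 0.52 ± 0.96, and it was -0.04 without endocardial replicate 2 and 1.17 without endocardial replicate 1.

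**Figure D1:**
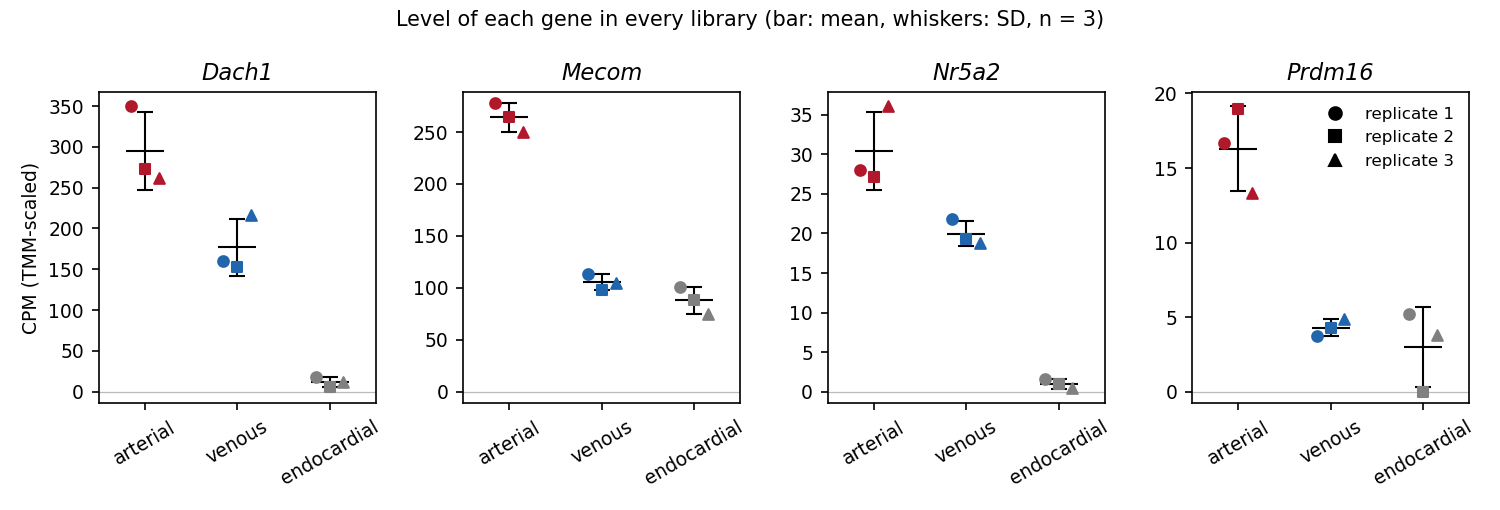
Levels of the 4 genes in CPM after TMM scaling (vertical axes, linear, one scale per gene) in the arterial, venous and endocardial libraries, with 1 symbol per library by replicate number, bars for the mean and whiskers for the SD of 3. Dach1 and Nr5a2 step down over the 3 populations with no overlap, whereas Mecom and Prdm16 are high in arterial libraries and overlap between venous and endocardial libraries.

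Over the 6 coronary libraries together, the contrast for which the genes were listed, coronary minus endocardial with equal log-scale weight for both coronary populations, was 4.29 ± 0.36 log2 units for Dach1, 4.65 ± 0.41 for Nr5a2, 0.93 ± 0.15 for Mecom and 1.48 ± 0.89 for Prdm16 (SE). For Prdm16 it was 2.13 without endocardial replicate 1 and 0.91 without endocardial replicate 2. Of all tested genes, 7.00% were called higher and 6.91% lower in coronary libraries and 9.08% had every coronary library above every endocardial one. Of the 4 genes, Dach1 and Nr5a2 had every coronary library above every endocardial one. Every arterial library lay above every endocardial library for all 4 genes, as for 13.2% of tested genes, and every venous library did for Dach1 and Nr5a2, as for 14.9%. These 3 comparisons share the endocardial libraries. Genes called higher made up 5.92% of those tested for arterial and 5.81% for venous minus endocardial, and genes called lower 5.75% and 4.44%.

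The arterial and venous libraries differed in the level of Mecom, and the difference for the other genes ran the same way without passing the test over all genes. Mecom was 2.51-fold higher in arterial than in venous libraries (1.33 ± 0.17 log2 units, edgeR quasi-likelihood test, adjusted p = 0.000376). That value was already known from an earlier look at these data. The genes were chosen by their coronary counts, which include the arterial libraries. A gene high in the arterial libraries alone could therefore enter the list, as the levels of Mecom and Prdm16 show. The p-values and counts for this contrast are thus not separate from the choice of the genes. Prdm16 was 3.80-fold higher in the arterial libraries (1.93 ± 0.97 log2 units, adjusted p = 0.657, edgeR). Dach1 was 1.67-fold higher in them (0.74 ± 0.33 log2 units, adjusted p = 0.577, edgeR) and Nr5a2 1.52-fold (0.61 ± 0.35 log2 units, adjusted p = 0.716, edgeR). Thus 1 of the 4 genes was called higher, beside 0.310% of all tested genes, and 0 were called lower, beside 0.760%. For each of the 4, all 3 arterial libraries lay above all 3 venous ones, which was so for 8.78% of tested genes.

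The call for Prdm16 depended on which libraries and genes entered the fit. All 9 libraries shared one estimate of the spread, which took in the count of 0 in endocardial replicate 2. Without that library the difference was 1.90 ± 0.42 log2 units with an adjusted p of 0.0335, and in a fit of the arterial and venous libraries alone it was 1.94 ± 0.33 with an adjusted p of 0.0138 (edgeR). In the other fits that left out 1 library the value lay between 1.75 and 2.04, with no call. With all 9 libraries and no filter on low counts it was 1.91 ± 0.56 with an adjusted p of 0.0435 (edgeR). Dach1 also passed in the fit without a filter on low counts (adjusted p = 0.0240, edgeR), and Nr5a2 passed in none of the alternatives. Mecom passed in all 14, with adjusted p between 9.75e-13 and 0.00214.

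The labels give a batch number that equals the replicate number, with 1 library of each population per batch. Within batches 1, 2 and 3, arterial minus venous on the log2(CPM + 1) scale was 1.29, 1.42 and 1.25 for Mecom. It was 1.90, 1.92 and 1.29 for Prdm16, 1.12, 0.83 and 0.28 for Dach1 and 0.35, 0.47 and 0.90 for Nr5a2. All 4 genes were higher in the arterial library of every batch, as were 16.8% of tested genes. The difference was even over batches for Mecom, while that of Dach1 was smallest and that of Nr5a2 largest in batch 3.

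**Figure D2:**
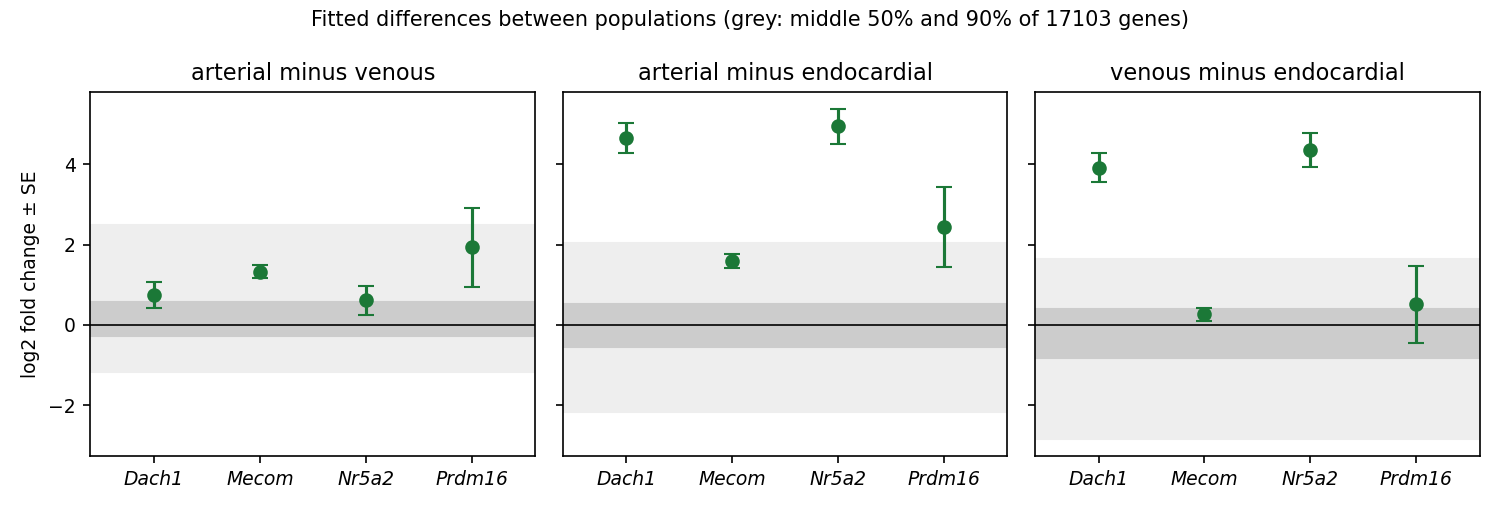
Fitted log2 fold changes (vertical axis, points with SE whiskers) of the 4 genes for arterial minus venous, arterial minus endocardial and venous minus endocardial, over grey bands for the middle 50% and 90% of all tested genes. For Mecom and Prdm16 the arterial minus venous value exceeds the venous minus endocardial one (1.33 against 0.26 and 1.93 against 0.52), and for Dach1 and Nr5a2 the reverse is seen (0.74 against 3.92 and 0.61 against 4.35).

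Some markers of mural cells, the pericytes and smooth muscle cells of the vessel wall, were higher in arterial libraries. The summed level of 10 mural markers was 535 to 844 CPM in arterial, 235 to 344 CPM in venous and 81.8 to 149.6 CPM in endocardial libraries, with 8 to 10 of the 10 detected. Of the 10, Abcc9, a potassium channel subunit of pericytes, was called higher in arterial than in venous libraries (adjusted p = 0.0473, edgeR) and 0 were called lower by either measure, adjusted or unadjusted p under 0.05. Abcc9 missed the threshold without arterial replicate 1 (0.0779), 2 (0.179) or 3 (0.215), endocardial replicate 2 (0.171) or venous replicate 1 (0.244) or 3 (0.281). It averaged 517 CPM in arterial, 201 CPM in venous and 48.8 CPM in endocardial libraries and made up most of the sum in both coronary populations. By unadjusted p under 0.05 (edgeR), Abcc9, Rgs5 and Kcnj8 were higher in arterial libraries. Rgs5 averaged 71.3 CPM in arterial, 29.3 CPM in venous and 4.17 CPM in endocardial libraries (adjusted p = 0.0544, edgeR). Kcnj8 averaged 42.5 CPM in arterial, 8.99 CPM in venous and 2.52 CPM in endocardial libraries (adjusted p = 0.265, edgeR). Both were called higher with DESeq2 (adjusted p = 0.00899 and 0.00792) and in the edgeR fit of coronary libraries alone (0.0244 and 0.000922). Pdgfrb, a receptor of pericytes, averaged 14.8 CPM in arterial, 9.40 CPM in venous and 40.8 CPM in endocardial libraries. Tagln averaged 2.43 CPM in arterial, 5.46 CPM in venous and 1.93 CPM in endocardial libraries, and Cspg4 and Notch3 had slightly lower means in arterial than in venous libraries. Contractile markers were low: Acta2 averaged 6.98 CPM in arterial, 6.60 CPM in venous and 4.63 CPM in endocardial libraries. Myh11 averaged 4.83 CPM in arterial, 0.910 CPM in venous and 1.02 CPM in endocardial libraries, and was at 0 in endocardial replicates 2 and 3. Cnn1 was at 0 in arterial replicates 1 and 2 and in endocardial replicates 2 and 3. Erythroid markers summed to 537 to 1212 CPM in arterial, 225 to 380 CPM in venous and 64.2 to 241 CPM in endocardial libraries. Fibroblast markers ran the other way, at 111 to 128 CPM in arterial, 1432 to 1663 CPM in venous and 1703 to 2053 CPM in endocardial libraries. The part of any of these in the levels of the 4 genes was not tested.

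Ratios between the genes were taken within a library and so do not depend on scaling between libraries. The 6 ratios are built from 4 genes and are not separate results, and none passed its test. The log2 ratio of Nr5a2 to Prdm16 was 0.90 ± 0.48 in arterial and 2.22 ± 0.30 in venous libraries (SD, n = 3 each). That of Dach1 to Prdm16 was 4.18 ± 0.29 in arterial and 5.35 ± 0.17 in venous libraries, and that of Mecom to Nr5a2 was 3.13 ± 0.29 in arterial and 2.40 ± 0.064 in venous libraries. Dach1 to Mecom was 0.15 ± 0.16 in arterial and 0.73 ± 0.28 in venous libraries, and Mecom to Prdm16 was 4.03 ± 0.22 in arterial and 4.62 ± 0.26 in venous libraries. In these 5 pairs the populations did not overlap, as in 17.6% of all pairs of tested genes, and the exact two-sided permutation test gave p = 0.10, the smallest it can give here, with 0.12 after Benjamini-Hochberg adjustment over 6 pairs. Dach1 to Nr5a2 was 3.28 ± 0.39 in arterial and 3.13 ± 0.34 in venous libraries, which overlapped (difference 0.15, exact permutation p = 0.80, adjusted 0.80).

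**Figure D3:**
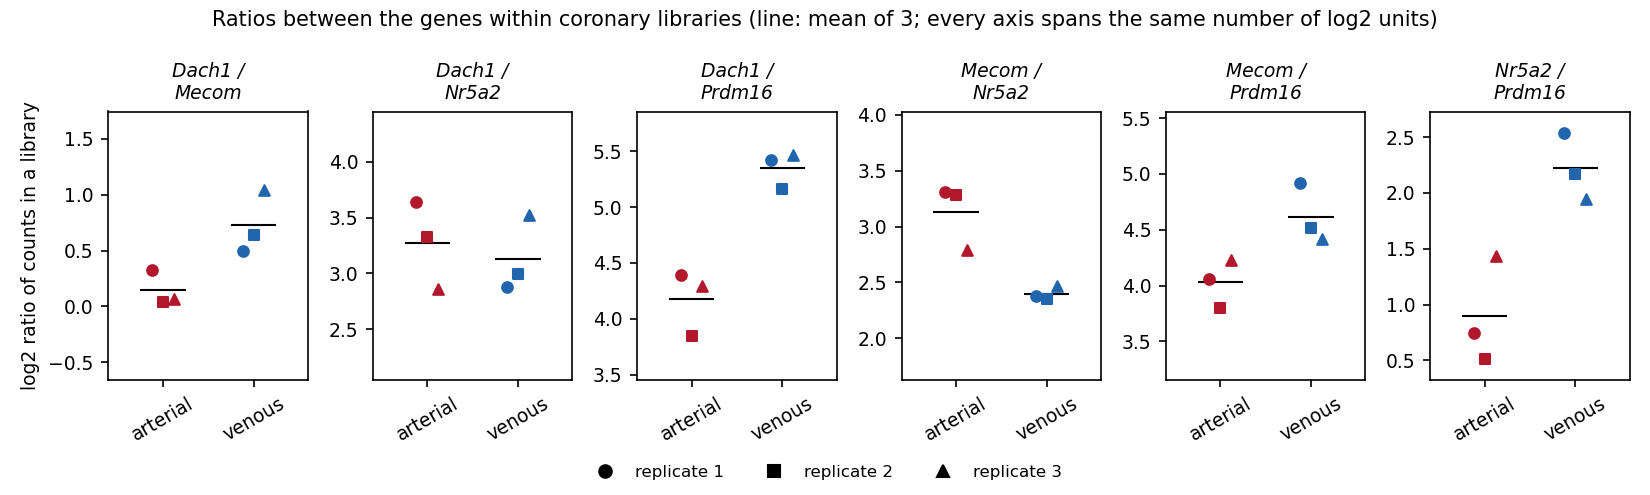
Log2 ratio of the counts of 2 genes within each arterial and venous library (vertical axes, all spanning the same number of log2 units), with 1 symbol per library by replicate number and a line for the mean of 3. Populations overlap for Dach1 over Nr5a2 and for no other pair.

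Per kilobase of exon, the scale on which genes can be compared, Dach1 was the most abundant of the 4 in both coronary populations and Mecom in the endocardial one. In arterial libraries the levels were 40.3 ± 6.57 CPM per kilobase for Dach1, 21.3 ± 1.13 for Mecom, 5.16 ± 0.84 for Nr5a2 and 1.75 ± 0.30 for Prdm16 (SD, n = 3). In venous libraries they were 24.1, 8.49, 3.39 and 0.460 CPM per kilobase in the same order of genes. In endocardial libraries Mecom led with 7.07 CPM per kilobase, followed by Dach1 with 1.60, Prdm16 with 0.322 and Nr5a2 with 0.167. Mecom thus made up 31.1% of the summed level per kilobase of the 4 genes in arterial, 23.3% in venous libraries and 77.2% in endocardial ones. These values depend on the length used, here all annotated exon bases of a gene, which is 12.4 kb for Mecom. The lengths come from GENCODE release 21 for mouse, which may not be the annotation behind the authors' counts. Divided by its longest transcript (5.69 kb), Mecom had 46.5 CPM per kilobase in arterial libraries. With the longest transcript of each gene, the share of Mecom was 41.8% (arterial), 32.5% (venous) and 84.7% (endocardial). The order of the genes within each population stayed the same.

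The genes closest in pattern, by the root mean square difference of centred log2 CPM over 9 libraries among 8480 genes, differed between the members. For Dach1 they were Sox17 (0.31), an endothelial SOX factor, Btnl9 (0.35), a capillary marker, Prnd (0.37), Ifi203-ps (0.37) and Ly6c1 (0.39). Sox17 averaged 59.1 CPM in arterial, 39.5 CPM in venous and 3.43 CPM in endocardial libraries. For Nr5a2 they were St8sia4 (0.44), Ly6c1 (0.47), Fam78b (0.48), Prnd (0.53) and Sema7a (0.55), so that Ly6c1 and Prnd were on both lists. For Mecom they were Tox2 (0.20), Gja1 (0.22), a connexin, Eogt (0.24), Sh3kbp1 (0.25) and Atp13a3 (0.25). Gja1 averaged 166 CPM in arterial, 86.6 CPM in venous and 61.2 CPM in endocardial libraries.

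No gene lay as close to Prdm16, whose profile took in the count of 0 in endocardial replicate 2. That library deviated by -3.43 log2 units from the endocardial mean of Prdm16, against 1.93 and 1.49 in endocardial replicates 1 and 3. Distances without endocardial replicate 2 were not taken. The nearest to Prdm16 were Taf10 (0.91), Slc25a30 (1.05), Ephb1 (1.09), Sntb1 (1.17) and Kcnj8 (1.19), a potassium channel subunit that is also one of the mural markers. Without endocardial replicate 1, Kcnj8 was the nearest to Prdm16, at 0.53, and 2 of the 5 genes stayed among the nearest. Kcnj8 averaged 42.5 CPM in arterial, 8.99 CPM in venous and 2.52 CPM in endocardial libraries. For Dach1, Mecom and Nr5a2, 3 of the 5 stayed in each case.

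Relatives and partners of the 4 genes were examined next. Of 13 other PRDM genes, 9 were tested, and 0 were called between arterial and venous libraries by edgeR or DESeq2 (1 had an unadjusted p under 0.05), with a median of 0.34 log2 units beside 0.03 over all genes. Prdm1, a repressor best known for plasma cells and germ cells, had the order arterial, venous, endocardial in its means. It averaged 38.0 ± 7.27 CPM in arterial, 16.1 ± 3.04 CPM in venous and 4.56 ± 3.02 CPM in endocardial libraries (SD, n = 3 each). Its arterial minus venous difference was 1.24 ± 0.41 log2 units (adjusted p = 0.286, edgeR), and 0.0277 in the fit of the coronary libraries alone. Prdm1 rose in coronary against endocardial libraries by 2.44 ± 0.40 log2 units (adjusted p = 0.000399, edgeR), and Prdm11 fell by 1.26 (SE 0.19, adjusted p = 0.000162, edgeR).

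Of 8 partners of Mecom and Prdm16, 0 were called between arterial and venous libraries by edgeR or DESeq2 (median -0.21). Beside corepressors the 8 include Smad3 and Med1. Only 1, Smad3, had an unadjusted p under 0.05 (edgeR). Ctbp1 averaged 70.9 CPM in arterial, 88.3 CPM in venous and 87.1 CPM in endocardial libraries, and Ctbp2 averaged 61.2 CPM in arterial, 65.0 CPM in venous and 54.4 CPM in endocardial libraries. Ehmt1, a histone methyltransferase, averaged 62.6 CPM in arterial, 57.9 CPM in venous and 62.3 CPM in endocardial libraries. In coronary against endocardial libraries 0 of the 8 rose and 1 fell, Smad3, a TGF-beta effector, with a difference of -1.76 ± 0.31 log2 units (adjusted p = 0.000631, edgeR).

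Of 13 relatives and partners of Dach1, from the SKI and SNO corepressors and the Eya and Six4 families, 11 were tested and 0 were called between arterial and venous libraries by edgeR or DESeq2 (median 0.24), and 1, Six4, had an unadjusted p under 0.05. Dach2, the paralog of Dach1, averaged 0.196 CPM in arterial, 0.250 CPM in venous and 1.06 CPM in endocardial libraries and did not pass the filter. Skil, the SNO corepressor, averaged 117 ± 1.502 CPM in arterial, 118 ± 11.6 CPM in venous and 122 ± 5.19 CPM in endocardial libraries (SD, n = 3 each). In coronary against endocardial libraries 0 of the 11 rose and 1 fell, Eya1, by 3.63 log2 units (SE 1.08, adjusted p = 0.0325, edgeR). Its adjusted p was 0.0546 without arterial replicate 1, 0.0542 without arterial replicate 3 and 0.253 without endocardial replicate 2. Eya4 averaged 0.371 CPM in arterial, 2.30 CPM in venous and 0 CPM in endocardial libraries. It narrowly missed the threshold against endocardial libraries (adjusted p = 0.0506, edgeR) and was called higher with DESeq2 (0.00161). Six4 also missed it (adjusted p = 0.0523, edgeR) and was called lower with DESeq2 (0.0293).

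Of 8 relatives and coregulators of Nr5a2, 6 were tested. Prox1, a corepressor of NR5A receptors and a factor of lymphatic identity, was lower in arterial than in venous libraries (7.30 CPM in arterial, 18.3 CPM in venous and 241 CPM in endocardial libraries; -1.32 ± 0.25 log2 units, adjusted p = 0.0112, edgeR). Its adjusted p was 0.0587 without venous replicate 1 and 0.117 in the fit of the coronary libraries alone. Lymphatic markers, of which Prox1 is one, summed to 89.9 to 114 CPM in arterial, 128 to 209 CPM in venous and 851 to 973 CPM in endocardial libraries, and their part in this was not tested. Nr5a1, the closest relative of Nr5a2, averaged 0.672 CPM in arterial, 0.298 CPM in venous and 0.656 CPM in endocardial libraries. Ncoa2, a coactivator, averaged 73.7 CPM in arterial, 74.4 CPM in venous and 63.1 CPM in endocardial libraries.

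Of 16 arterial genes, 9 rose in arterial against venous libraries and 0 fell, by edgeR and by DESeq2, with none at an unadjusted p under 0.05 in that direction (median 1.15, beside 0.03 over all genes). Cxcl12, the chemokine known as a target of Dach1 in mice, averaged 245 ± 100.4 CPM in arterial, 22.8 ± 10.4 CPM in venous and 10.3 ± 2.46 CPM in endocardial libraries (SD, n = 3 each; 3.43 ± 0.47 log2 units for arterial minus venous, adjusted p = 0.00941, edgeR). Its receptor gene Cxcr4 averaged 74.97 ± 12.1 CPM in arterial, 17.51 ± 3.56 CPM in venous and 1.21 ± 0.28 CPM in endocardial libraries (2.10 ± 0.26 log2 units, adjusted p = 0.000319, edgeR). Gja5, a connexin of arterial endothelium, was higher in arterial than in venous libraries by 4.21 ± 0.34 log2 units (adjusted p = 2.86e-06, edgeR). The others that rose were Gja4, Jag1, Hey1, Efnb2, Unc5b and Bmx. Cxcl12 lost its call without endocardial replicate 1 (adjusted p = 0.0572), venous replicate 2 (0.0713) or venous replicate 3 (0.0575), and Efnb2, Unc5b and Bmx also lost theirs when some single library was left out. In the edgeR fit of the coronary libraries alone, Cxcl12 (adjusted p = 0.0577) and Bmx (0.0791) missed the threshold.

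Of 23 other endothelial transcription factors, 0 were called higher in arterial than in venous libraries by edgeR or DESeq2, and 1, Ets1, had an unadjusted p under 0.05. Foxc1 and Nr2f2, a factor of venous identity, were called lower, by 1.01 and 1.49 log2 units (adjusted p = 0.0119 and 0.000547, edgeR). Foxc1 missed the threshold without venous replicate 1 (0.0950) and in the fit of the coronary libraries alone (0.101). Meox1 was not called (adjusted p = 0.219, edgeR) but was called lower in that coronary fit (0.0367), without a filter (0.00323) and without endocardial replicate 1 (0.0272). In coronary against endocardial libraries 8 of the 23 rose and 6 fell, among them Sox17 with 3.82 ± 0.41 log2 units (adjusted p = 2.09e-05, edgeR) and Meox2, a homeobox factor, with 3.90 ± 0.21 (adjusted p = 1.40e-09, edgeR). The values of Dach1 and Nr5a2 in that comparison, 4.29 and 4.65, were above both, and those of Mecom and Prdm16, 0.93 and 1.48, were below both. That comparison chose Dach1, Nr5a2, Mecom and Prdm16, so their place in it is a description and not a finding.

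**Figure D4:**
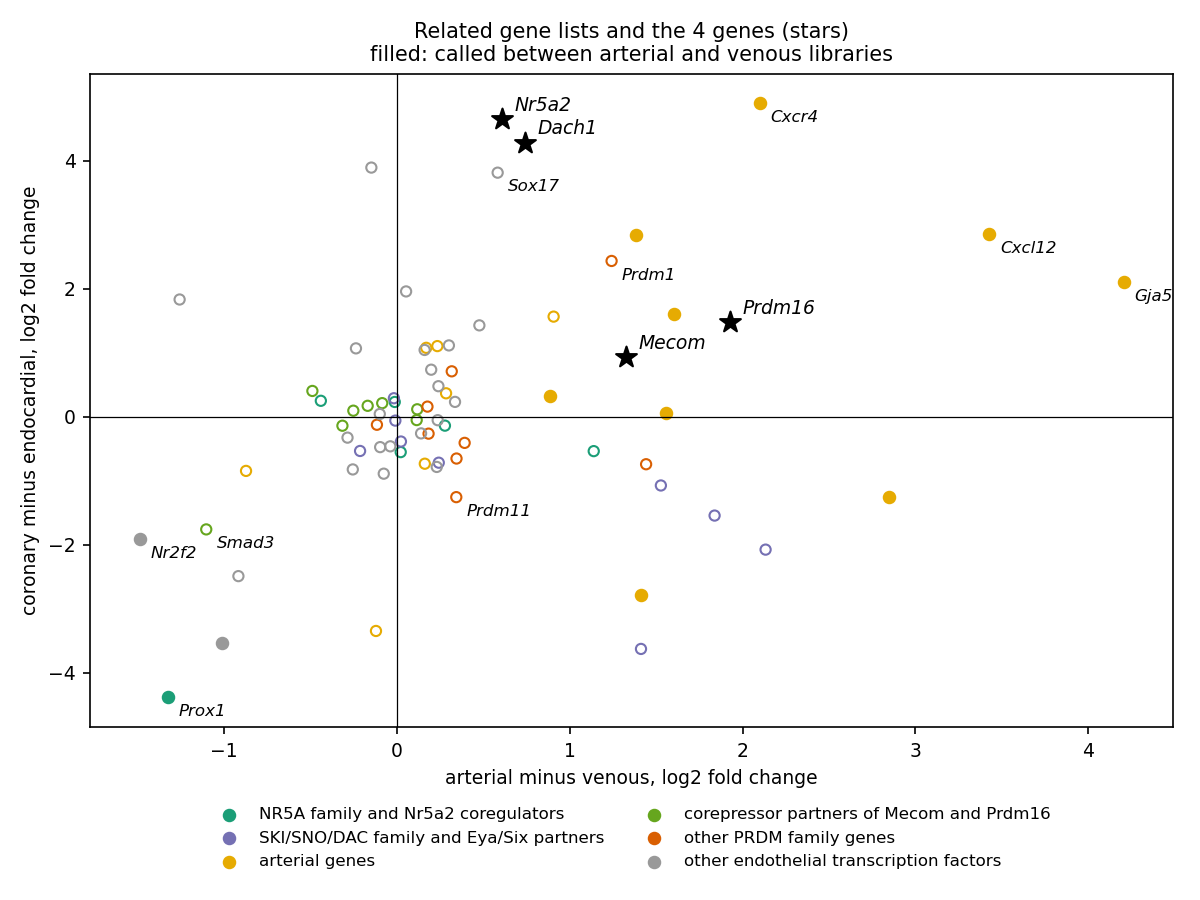
Fitted log2 fold changes of the 4 genes (stars) and of the tested genes of 6 lists (circles, coloured by list, filled where called between arterial and venous libraries), with arterial minus venous on the horizontal axis and coronary minus endocardial on the vertical axis. Dach1 and Nr5a2 lie near Sox17, high on the vertical axis, and Mecom and Prdm16 lie to the right of it and lower. Genes at 0 in every library of a population are not drawn, since their fitted values depend on the prior count.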

How the data were processed

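RNA of 9 sorted libraries was sequenced as single reads, and the authors deposited one table of gene-level expected counts. Per the submitters' processing notes, CASAVA 1.8.2, cutadapt 1.3 and RSEM 1.2.3 were used with GRCm38; neither the aligner nor the library strand is given in the sources used here. The labels' protocols state that 1 ng of RNA entered an amplifying library kit, so that counts are not independent molecules and counting limits cover counting error only. Of 41214 genes, 40254 had a symbol. Of the values above 0, 45.5% were not whole, and values were rounded to whole counts first.

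The test was edgeR's quasi-likelihood F test (version 4.0.16, R 4.3.3, robust, TMM scaling, minimum count of 10 in the filter for low counts), in 1 fit of all 9 libraries with 1 mean per population, and p-values were adjusted by Benjamini-Hochberg over 17103 genes. The common dispersion was 0.409. The script was tested on simulated data drawn from the levels and spread of its own fit. That checks the code and not whether the model suits these libraries. Endocardial comparisons of the 4 genes carry no p, since they chose the genes. Alternatives were a replicate block, DESeq2 1.42.0, upper quartile scaling, no filter, each library left out and the coronary libraries alone.

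The members and lists were chosen with earlier results of these data known. The rule for named genes took list genes called between arterial and venous libraries, up to 4 per list with the smallest p against endocardial libraries, the 5 nearest in pattern to each member among genes averaging log2 CPM 3 or more, and a fixed set of partners; not all are named. The batch label equals the replicate number, so the labels pair the libraries. Correlations of same-numbered libraries' deviations from their population means ran from 0.083 to 0.165 in batch 1, from 0.036 to 0.146 in batch 2 and from -0.090 to 0.092 in batch 3. Sequences came from RefSeq (GRCm38.p6) and positions from GENCODE release 21 for mouse.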

Additional observations from a re-analysis of the deposited data

How the results depend on the processing

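The arterial minus venous difference kept its direction for Dach1, Mecom, Nr5a2 and Prdm16 under all 14 alternatives. With the replicate block, which uses the pairing by batch, Mecom had an adjusted p of 8.65e-05 and Prdm16 one of 0.705 (1.96 log2 units); the block changed no call of the 4 genes, and it called 225 genes between arterial and venous and 2722 between coronary and endocardial libraries, against 183 and 2379 without it. Without a filter on low counts Dach1 (0.71, adjusted p = 0.0240) and Prdm16 (1.91, adjusted p = 0.0435) passed (edgeR). Prdm16 also passed without endocardial replicate 2 (1.90) and with arterial and venous libraries only (1.94). Leaving out libraries gave 0.59 to 0.90 for Dach1, 0.45 to 0.67 for Nr5a2 and 1.75 to 2.04 for Prdm16.

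Without endocardial replicate 1 the endocardial comparisons of Nr5a2 moved by more than 1 SE, and over all fits that left out a library they ran from 4.28 to 5.19 for coronary, 4.58 to 5.49 for arterial and 3.98 to 4.89 for venous minus endocardial. Those of Dach1 ran from 3.97 to 4.70 for coronary, 4.32 to 5.07 for arterial and 3.61 to 4.33 for venous minus endocardial. Their highest values also lay more than 1 SE above the main fit. Prdm16 venous minus endocardial ran from -0.037 (without endocardial replicate 2) to 1.17. The arterial minus venous difference in the log2 ratio of Dach1 to Nr5a2 was 0.15. It ran from -0.036 (without arterial replicate 1) to 0.36 with a library left out.

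Counts of called genes moved. Genes higher in arterial than in venous libraries numbered 53, against 173 with DESeq2, 179 without a filter, 86 in the coronary libraries alone and 31 to 78 with a library left out. Genes lower numbered 130, against 232, 260 and 82 to 147 for DESeq2, no filter and a library left out. Genes lower in venous than in endocardial libraries numbered 759, against 1262 with DESeq2 and 462 to 834 with a library left out. The cause was not tested. Low counts limit Nr5a2 and Prdm16 in endocardial libraries.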
